A study of Mus musculus with 36 samples.

Results

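A set of 9 genes of epithelial anchorage was followed in primary mouse prostate organoids that carried inducible FOXA1 constructs. They were Lama3 and Lamb3 (laminin-332 chains), Itga6, Itgb4 and Itga3 (integrin subunits), Col17a1 and Cd151 (membrane proteins), and Dst and Plec (plakins). The genes were chosen by name, as parts of the hemidesmosome, its laminin ligand and the integrins that bind it. All 9 were among the 18176 genes tested, out of 45232 in the deposited tables.

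The series holds 36 polyA RNA-seq libraries in 12 groups of 3, which cross 4 constructs with 3 days of collection. The constructs were wild-type FOXA1 (WT), the FOXA1 variants FE255del and R219S, and an empty vector (EV), all in the doxycycline-inducible pCW vector whose product carries DsRED. WT, FE255del, R219S and EV organoids were each collected on days 0, 1 and 11. The doxycycline dose was 500 ng/mL, and the names of the deposited tables mark day 0 as without doxycycline. DsRED-positive cells infected with each construct were sorted, seeded in triplicate and kept apart from then on. Replicates are therefore parallel cultures of 1 infected population per construct, p-values measure the spread between those cultures, and the construct and its infected population cannot be told apart.

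Hemidesmosomes are the junctions that fix basal epithelial cells to the basement membrane. On the outer side, laminin-332 is the ligand of integrin α6β4, the product of Itga6 and Itgb4, and of integrin α3β1, which holds the product of Itga3. Inside the cell, plectin (Plec) and the epithelial form of dystonin (Dst) tie β4 integrin and type XVII collagen (Col17a1) to keratin filaments, and the tetraspanin CD151 binds the laminin-receptor integrins. In the prostate these junctions belong to the basal layer, whereas FOXA1 is a forkhead pioneer factor of the luminal lineage. In bulk RNA, fewer cells of a type and less RNA per cell cannot be told apart.

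The sequence upstream of the transcription start was available from RefSeq (GRCm38.p6) for 5 of the 9 genes, in 9 windows. Stretches are shown for Lamb3, Col17a1 and Itga3, which differed in where R219S stood on day 1, described below. R219S lay close to WT and below EV for Lamb3, between WT and EV for Col17a1, and above EV for Itga3. A link between these sequences and expression was not tested. Each stretch is the part of a window of 250 bases before the RefSeq start that lies upstream of the gene's first overlapping GENCODE exon, and the choice was made after the expression values were seen. Capitals mark matches, on either strand, to TATAAA or to the GC box GGGCGG.
Lamb3, chr1:193301744-193301992, plus strand: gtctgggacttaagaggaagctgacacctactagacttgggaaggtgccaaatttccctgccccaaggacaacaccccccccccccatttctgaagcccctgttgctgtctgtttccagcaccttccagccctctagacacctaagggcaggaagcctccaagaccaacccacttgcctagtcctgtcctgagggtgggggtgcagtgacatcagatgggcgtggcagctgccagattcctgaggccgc
Col17a1, chr19:47692095-47692292, minus strand: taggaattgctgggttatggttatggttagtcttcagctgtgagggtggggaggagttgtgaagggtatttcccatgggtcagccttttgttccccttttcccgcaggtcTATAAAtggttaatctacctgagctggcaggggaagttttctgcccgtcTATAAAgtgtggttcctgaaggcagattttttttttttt
Itga3, chr11:95076802-95076964, minus strand: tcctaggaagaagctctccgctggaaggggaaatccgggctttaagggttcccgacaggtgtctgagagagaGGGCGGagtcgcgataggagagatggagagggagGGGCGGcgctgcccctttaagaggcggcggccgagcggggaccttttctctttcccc
The Col17a1 stretch held TATAAA at 2 places. Of the 32851 windows, cut to their upstream 198 bases as this stretch was, 9.08% held it at least once. The cut left out the bases nearest each RefSeq start. The Itga3 stretch held GGGCGG at 2 places, and 18.4% of windows cut in the same way to its length held it at least once. None of the 3 stretches held the forkhead letters TGTTTAC, the AP-1 letters TGANTCA or the TEAD letters GGAATG on either strand. Of the 9 full windows, 1 held GGAATG, at 1 place: the window before the other RefSeq start of Lamb3, which is not printed. None of the 9 held TGTTTAC or TGANTCA. These motifs do not overlap each other. In windows of the Lamb3 length the shares were 3.15% for TGTTTAC, 6.74% for TGANTCA and 12.6% for GGAATG.

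The libraries held 61476938 to 102385337 counted reads, and the 9 genes had from 1333 reads (Dst) to 143616 reads (Col17a1) in a library. Levels below are CPM, a gene's share of a library's counts, scaled by edgeR's TMM factors, and a gene is called where edgeR's quasi-likelihood test gives a Benjamini-Hochberg adjusted p under 0.05 over all 18176 genes. Foxa1 counts follow the labels on day 1, at 414.3 ± 4.69 CPM in WT, 320.2 ± 27.1 CPM in FE255del, 308.6 ± 5.11 CPM in R219S and 226.7 ± 4.99 CPM in EV (SD, n = 3 each). By day 11 Foxa1 stood at 268.6 ± 14.3 CPM in WT and 295.0 ± 25.7 CPM in FE255del. R219S then had 268.5 ± 29.6 CPM and EV 230.2 ± 12.2 CPM. For WT the day 0 level was 256.5 ± 3.19 CPM. The labelled prostate epithelium was checked with marker genes. Summed luminal markers (Krt8, Krt18, Krt19, Cd24a) ran from 2900 to 5420 CPM over the 36 libraries and summed basal markers (Krt5, Krt14, Krt15, Krt17, Trp63) from 1380 to 11200 CPM. Fibroblast markers summed to at most 3.27 CPM, smooth muscle markers to at most 33.1 CPM, endothelial markers to at most 7.07 CPM and neuroendocrine markers to at most 0.731 CPM. Leukocyte markers reached 45.2 to 73.8 CPM in the day 1 libraries of WT and FE255del and at most 11.3 CPM elsewhere; nearly all of it was Csf1r, and the defining marker Ptprc did not exceed 0.348 CPM.

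On day 1 all 9 genes were lower in WT and in FE255del organoids than in EV organoids. The background was 30.9% of all genes called lower for WT and 27.7% for FE255del. The median log2 fold change of the 9 was -1.06 for WT and -1.0 for FE255del, beside medians over all genes of -0.01 and -0.03. In WT the calls of Itga6 and Dst were marginal, and 7 to 8 of the 9 were called when any 1 library was left out. R219S gave a split: 4 of the 9 were lower than in EV (background 25.3%), 2 were higher (background 23.2%) and 3 were not called, with a median of -0.11 beside -0.04 over all genes. By day 11, 7 of the 9 were still lower in WT (background 19.7%) and in FE255del (19.6%), whereas 7 of the 9 were higher in R219S than in EV (17.7%). The median of the 9 on day 11 was -0.43 for WT, -0.42 for FE255del and 0.36 for R219S, beside all-gene medians within 0.01 of 0.

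**Figure D1:**
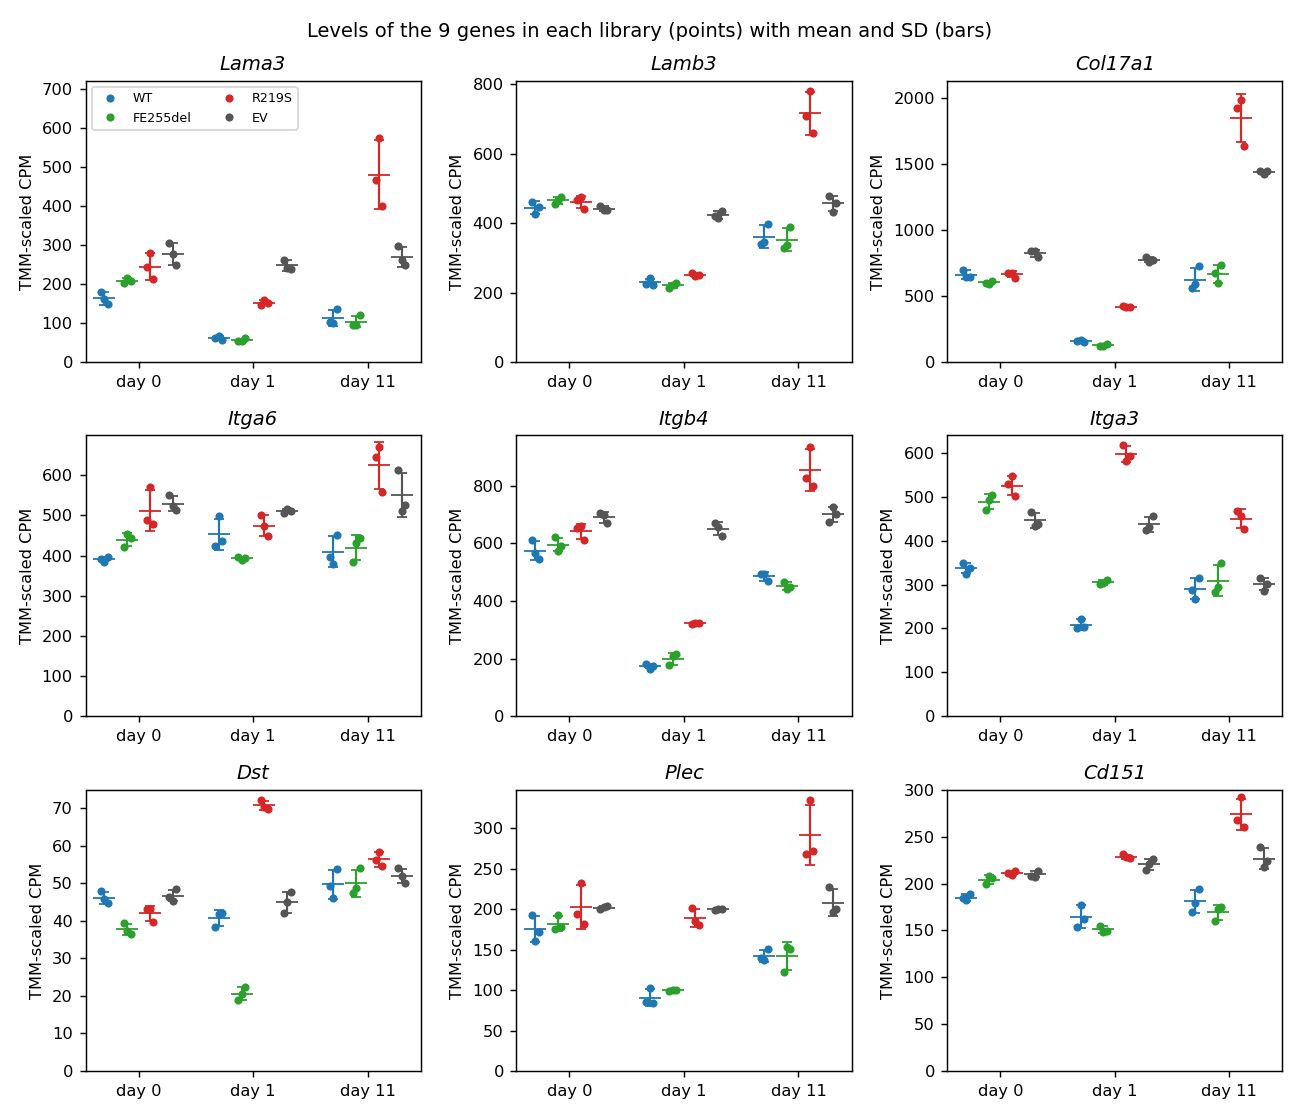
TMM-scaled CPM (vertical axes, from 0) of each of the 9 genes on days 0, 1 and 11, with the constructs in the order WT, FE255del, R219S and EV. Points are libraries, horizontal bars with whiskers the mean and SD of 3. WT and FE255del libraries lie low on day 1 in most panels, and R219S on day 11 has the highest of the 12 group means in 7 of the 9. The share of all genes highest in that group was not computed.

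Lama3, which encodes the α3 chain that gives laminin-332 its integrin-binding end, lies on chromosome 18 (12333819-12583013, GRCm38). Its day 1 levels were 62.3, 66.8 and 56.8 CPM in WT libraries, 52.6, 54.9 and 60.5 CPM in FE255del libraries, 145.8, 157.9 and 150.9 CPM in R219S libraries, and 262.1, 240.3 and 239.3 CPM in EV libraries. WT and FE255del overlapped each other, R219S stood between, and none of the 3 overlapped EV. WT was 3.99-fold below EV (log2 -2.0 ± 0.13, SE, edgeR adjusted p = 5.0e-13), FE255del 4.42-fold below (adjusted p = 1.9e-13) and R219S 1.63-fold below (log2 -0.71 ± 0.13, adjusted p = 4.4e-05). On day 11 the levels were 101.3, 99.2 and 135.8 CPM in WT, 95.6, 93.6 and 120.1 CPM in FE255del, 465.7, 574.1 and 400.9 CPM in R219S, and 298.4, 261.2 and 249 CPM in EV. R219S was then the high group, with every library above all EV libraries, and log2 0.83 ± 0.13 above EV (adjusted p = 8.6e-06), while WT stayed at -1.27 ± 0.13 (adjusted p = 7.7e-09) and FE255del at -1.39 ± 0.13 (adjusted p = 1.4e-09).

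Lamb3 (chromosome 1, 193207699-193343878) encodes the β3 chain, which is found only in this laminin. On day 1 it stood at 224.1, 241.0 and 222.8 CPM in WT, 213.9, 222.4 and 227.3 CPM in FE255del, 256.2, 246.8 and 249.9 CPM in R219S, and 421.1, 413.9 and 434.2 CPM in EV. All 9 libraries with a FOXA1 construct lay well below the EV libraries. The differences were close in size: log2 -0.88 ± 0.06 for WT (edgeR adjusted p = 4.7e-15), -0.94 ± 0.06 for FE255del (adjusted p = 1.6e-15) and -0.75 ± 0.06 for R219S (adjusted p = 5.3e-13). Day 11 separated them, with 339.2, 344.4 and 397.9 CPM in WT, 328.2, 336.7 and 389.7 CPM in FE255del, 709.6, 780.6 and 658.0 CPM in R219S, and 477.6, 432.5 and 459.0 CPM in EV. WT and FE255del stayed below every EV library, by -0.34 ± 0.06 and -0.38 ± 0.06, and R219S was 0.65 ± 0.06 above (adjusted p = 5.2e-11). The ratio of Lama3 to Lamb3 CPM on day 1 was 0.270 ± 0.013 in WT, 0.253 ± 0.012 in FE255del, 0.604 ± 0.035 in R219S and 0.585 ± 0.036 in EV (SD, n = 3 each; not tested). Every WT and FE255del library had a lower ratio than every EV library on that day, and the R219S libraries overlapped EV.

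Itga6 (chromosome 2, 71745616-71858416), the α6 partner of β4 and of β1 integrin, moved little. Over the 12 groups its mean ran from 391.1 CPM in WT on day 0 to 624.6 CPM in R219S on day 11, a 1.60-fold range, and the libraries overlapped in 10 of the 11 steps between neighbouring groups. On day 1 it had 424.7, 497.1 and 435.4 CPM in WT, 395.6, 389.5 and 392.6 CPM in FE255del, 500.2, 472.4 and 449.2 CPM in R219S, and 505.8, 515.5 and 511.5 CPM in EV. FE255del was clearly apart from EV (log2 -0.38 ± 0.07, edgeR adjusted p = 5.6e-05). The WT difference was small (-0.18 ± 0.07, adjusted p = 0.042) and was lost under 6 other processing choices, among them DESeq2 (adjusted p = 0.122), as well as without EV replicate 1 (0.066), 2 (0.091) or 3 (0.08) or WT replicate 1 (0.194) or 3 (0.141). R219S differed from EV by -0.11 ± 0.07 on day 1 (adjusted p = 0.242) and by 0.18 ± 0.07 on day 11 (adjusted p = 0.058). The day 11 difference of R219S passed with halved counts (0.19, adjusted p = 0.041) and without EV replicate 1 (0.27, adjusted p = 0.007) or R219S replicate 3 (0.26, adjusted p = 0.01).

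Itgb4 (chromosome 11, 115974709-116008412) encodes the β4 subunit, whose long tail nucleates the hemidesmosome. Day 1 levels were 182.4, 165.8 and 176.1 CPM in WT, 177.2, 208.9 and 215.8 CPM in FE255del, 320.2, 323.7 and 324.5 CPM in R219S, and 670.5, 658.0 and 625.0 CPM in EV. No library with a FOXA1 construct reached an EV library, and R219S lay between WT or FE255del and EV. WT was 3.73-fold below EV (log2 -1.90 ± 0.06, edgeR adjusted p = 4.9e-24), FE255del 3.25-fold (-1.70 ± 0.06, adjusted p = 1.4e-22) and R219S 2.02-fold (-1.01 ± 0.06, adjusted p = 1.5e-16). By day 11 the levels were 494.0, 492.5 and 468.8 CPM in WT, 466.3, 440.7 and 449.0 CPM in FE255del, 825.8, 935.1 and 799.0 CPM in R219S, and 674.6, 725.9 and 701.3 CPM in EV. The day 11 differences from EV were thus smaller for WT (-0.53 ± 0.06) and FE255del (-0.63 ± 0.06), and positive for R219S (0.28 ± 0.06, adjusted p = 1.6e-04).

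The ratio of Itgb4 to Itga6 CPM within a library shows the partners apart. It was 0.429, 0.334 and 0.404 in WT libraries of day 1, 0.448, 0.536 and 0.550 in FE255del, 0.640, 0.685 and 0.722 in R219S, and 1.33, 1.28 and 1.22 in EV. The 9 FOXA1 libraries of day 1 did not overlap EV. On day 0 the means lay between 1.26 ± 0.095 (R219S) and 1.47 ± 0.094 (WT), and on day 11 between 1.08 ± 0.11 (FE255del) and 1.37 ± 0.079 (R219S), with overlap between WT and EV libraries on day 11. The ratio was not tested, and because it is not scaled by gene length it compares groups, not subunits.

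Itga3 (chromosome 11, 95044474-95076801, minus strand), the α3 subunit of the other laminin-332 receptor, separated R219S from the rest. On day 1 it had 201.0, 222.2 and 203.2 CPM in WT, 300.6, 302.8 and 311.0 CPM in FE255del, 617.8, 580.1 and 592.6 CPM in R219S, and 424.6, 430.1 and 455.7 CPM in EV. All 4 groups were free of overlap, with R219S highest and WT lowest. Relative to EV, WT was at log2 -1.06 ± 0.06 (edgeR adjusted p = 5.7e-17), FE255del at -0.52 ± 0.06 (adjusted p = 4.1e-09) and R219S at 0.45 ± 0.06 (adjusted p = 8.8e-08). The order was partly in place on day 0, with 337.4 ± 12 CPM in WT, 488.6 ± 16.9 CPM in FE255del, 525.1 ± 22.5 CPM in R219S and 445.8 ± 17.5 CPM in EV (SD, n = 3 each). On day 11 it stood at 288.4, 267.2 and 315.2 CPM in WT, 284.0, 293.3 and 348.6 CPM in FE255del, 467.9, 455.1 and 425.9 CPM in R219S, and 315.6, 286.2 and 301.9 CPM in EV. R219S alone was then called against EV (0.58 ± 0.06, adjusted p = 1.2e-09). WT differed by -0.05 ± 0.06 and FE255del by 0.03 ± 0.06, and both of those signs turned when 1 library was left out. They turned without WT replicate 2 in the first case and without EV replicate 2 or FE255del replicate 3 (to -0.06) in the second.

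**Figure D2:**
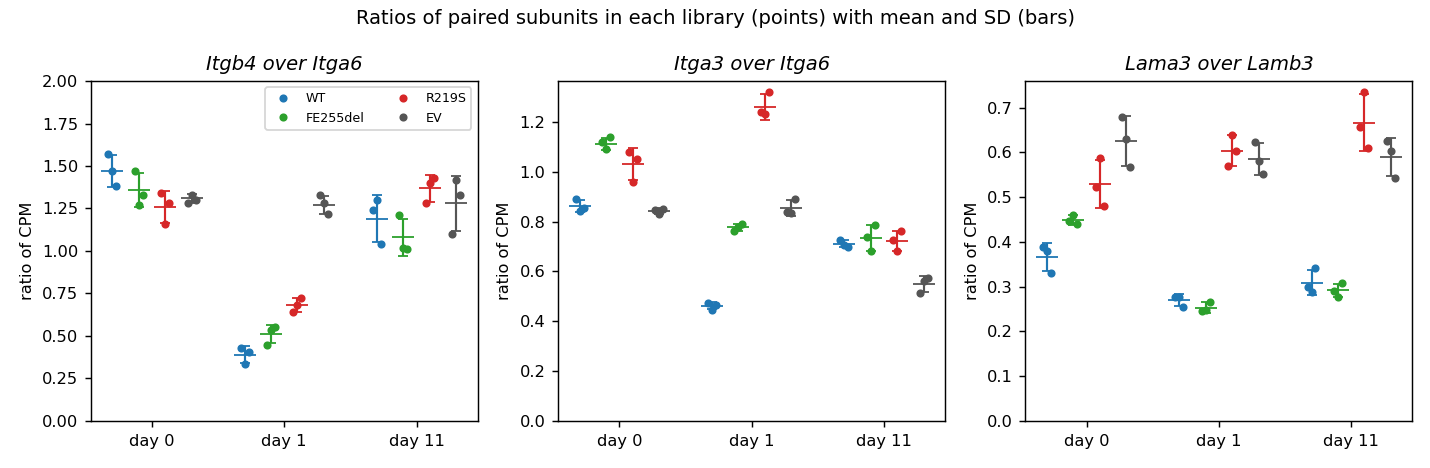
Ratios of CPM (vertical axes, from 0) within each library for Itgb4 over Itga6, Itga3 over Itga6 and Lama3 over Lamb3, by day and construct; points are libraries and bars the mean and SD of 3. On day 1 the mean Itgb4 ratio is 0.389 in WT and 1.27 in EV, and the mean Itga3 ratio is 1.26 in R219S and 0.855 in EV.

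Col17a1 (chromosome 19, 47646344-47692094, minus strand), the transmembrane type XVII collagen that links plakins to laminin, had the widest range of the 9, 14.7-fold between group means. Day 1 levels were 159.8, 163.3 and 149.7 CPM in WT, 119.5, 119.4 and 137.9 CPM in FE255del, 421.8, 412.9 and 412.2 CPM in R219S, and 792.2, 756.6 and 773.2 CPM in EV. The 4 groups did not overlap. WT was 4.91-fold below EV (log2 -2.30 ± 0.08, edgeR adjusted p = 3.5e-22), FE255del 6.16-fold (-2.62 ± 0.08, adjusted p = 3.0e-23) and R219S 1.86-fold (-0.90 ± 0.07, adjusted p = 5.4e-12). On day 11 it reached 558.6, 586.3 and 725.4 CPM in WT, 676.2, 595.2 and 732.2 CPM in FE255del, 1922, 1978 and 1637 CPM in R219S, and 1446, 1420 and 1446 CPM in EV. R219S was above EV by 0.36 ± 0.07 (adjusted p = 2.3e-04), and WT and FE255del were below it by 2.31-fold (-1.21 ± 0.08) and 2.15-fold (-1.11 ± 0.07).

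Cd151 (chromosome 7, 141467392-141471473) encodes the tetraspanin of the complex. Its day 1 levels were 154.1, 177.7 and 162.4 CPM in WT, 155.1, 148.6 and 149.6 CPM in FE255del, 231.2, 228.3 and 226.9 CPM in R219S, and 214.9, 220.7 and 226.5 CPM in EV. WT and FE255del lay below EV, by log2 -0.42 ± 0.05 (edgeR adjusted p = 2.2e-09) and -0.55 ± 0.05 (adjusted p = 8.1e-12). R219S was not called (0.05 ± 0.05, adjusted p = 0.402), although its 3 libraries lay just above the 3 of EV, and it passed under total-count scaling (0.11, adjusted p = 0.02) and with the 2 compared groups alone in the fit (0.09, adjusted p = 0.009). On day 11 R219S was higher than EV (0.27 ± 0.05, adjusted p = 2.6e-05), and WT (-0.33 ± 0.05) and FE255del (-0.42 ± 0.05) were lower.

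Plec (chromosome 15, 76170974-76232574, minus strand), the plectin gene, had 85.3, 102.7 and 84.4 CPM in WT on day 1, 99.1, 100.4 and 99.9 CPM in FE255del, 201.6, 185.6 and 180.8 CPM in R219S, and 198.8, 200.4 and 200.9 CPM in EV. WT and FE255del were clearly low and R219S overlapped EV. The log2 fold changes against EV were -1.14 ± 0.09 for WT (edgeR adjusted p = 1.3e-11), -1.0 ± 0.09 for FE255del (adjusted p = 2.6e-10) and -0.08 ± 0.09 for R219S (adjusted p = 0.518). Day 11 levels were 139.4, 137.3 and 150.5 CPM in WT, 122.7, 152.7 and 151.3 CPM in FE255del, 268.9, 334.9 and 272.5 CPM in R219S, and 227.2, 196.8 and 200.7 CPM in EV. R219S was now above every EV library (0.49 ± 0.09, adjusted p = 1.1e-04), and WT and FE255del were each 1.46-fold below EV.

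Dst (chromosome 1, 33908225-34308661) is counted over all its isoforms, so the epithelial form cannot be told apart from the neuronal and muscle forms, and the isoforms of Plec cannot be told apart either. On day 1 Dst had 38.4, 41.9 and 42.0 CPM in WT, 18.8, 20.6 and 22.5 CPM in FE255del, 72.3, 70.5 and 70.0 CPM in R219S, and 42.2, 45.1 and 47.7 CPM in EV. FE255del and R219S went opposite ways from EV: -1.12 ± 0.06 (edgeR adjusted p = 3.5e-17) and 0.66 ± 0.06 (adjusted p = 1.8e-11). The WT difference was -0.14 ± 0.06 (adjusted p = 0.04), and it did not pass with DESeq2 (adjusted p = 0.157) and 5 other choices, nor without EV replicate 2 (0.083) or 3 (0.215) or WT replicate 1 (0.233) or 2 (0.051). Day 11 levels ran from 46.1 to 53.9 CPM in WT, 47.4 to 54.1 CPM in FE255del, 54.6 to 58.4 CPM in R219S and 50.2 to 54.0 CPM in EV, and no construct was called against EV.

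**Figure D3:**
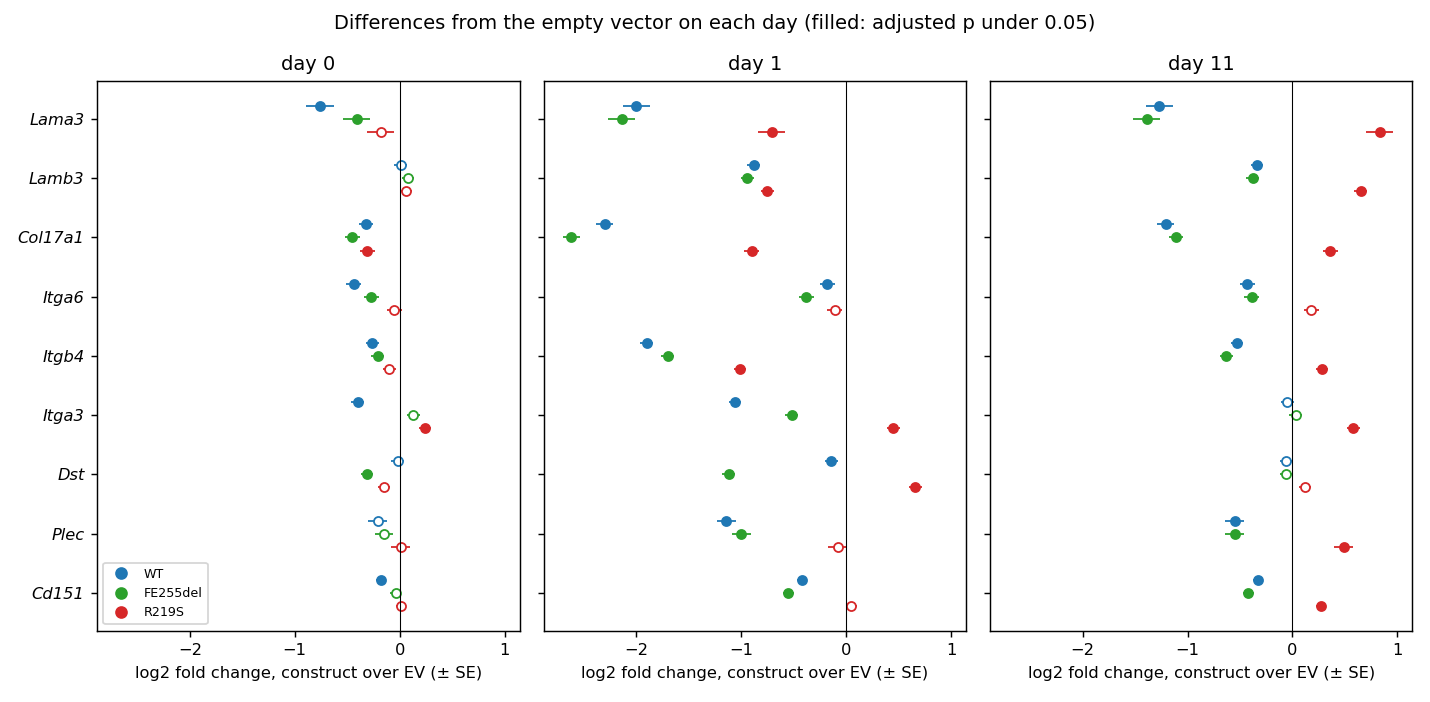
Log2 fold change over EV (horizontal axis, ± SE) of the 9 genes on days 0, 1 and 11 for WT, FE255del and R219S; filled points have an adjusted p under 0.05. On day 1 the WT and FE255del points lie left of 0, down to -2.62 for Col17a1 in FE255del, and on day 11 all 9 R219S points lie right of 0.

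The summed level of the basal markers on day 1 was 2550 to 2670 CPM in WT libraries, 1380 to 1500 CPM in FE255del, 4650 to 4770 CPM in R219S and 7610 to 8400 CPM in EV. On day 11 it was 4480 to 5500 CPM in WT, 4760 to 4920 CPM in FE255del, 10100 to 11200 CPM in R219S and 8920 to 9750 CPM in EV. All 5 basal markers were lower in WT (30.9% of all genes) and in FE255del (27.7%) on day 1, including the cytokeratin genes Krt14 (log2 -3.20 and -3.23) and Krt5 (-1.25 and -2.61), whose products fill the filaments that hemidesmosomes hold, and Trp63 (-1.0 and -1.26), the basal transcription factor. In R219S on day 1, 4 of the 5 were lower (25.3% of all genes) and Trp63 was at 0.12 ± 0.07 (edgeR adjusted p = 0.133). On day 11, 3 of the 5 were higher in R219S (17.7% of all genes) and 1, Krt15, was lower (-0.29; 14.4%). In WT (19.7%) and in FE255del (19.6%) 4 of the 5 were lower on day 11, and Krt15 was higher, by 0.35 ± 0.08 in WT (edgeR adjusted p = 5.0e-04; 21.0% of all genes) and 0.30 ± 0.08 in FE255del (adjusted p = 0.002; 22.6%). The part of basal cell content in the results for the 9 genes was not tested. The summed level of the luminal markers was highest in R219S on day 1, at 5300 to 5420 CPM, against 3610 to 3860 CPM in EV. That sum rests mainly on Cd24a and Krt19, which reached 3580 and 2240 CPM in their highest libraries. Krt18 reached at most 884 CPM and Krt8 at most 508 CPM. Single luminal markers are not compared between groups here.

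The lines were not identical on day 0. Relative to EV, 6 of the 9 genes were lower in WT (background 12.8%), 5 were lower in FE255del (9.72%), and in R219S 1 was lower, Col17a1 (-0.31 ± 0.07; background 6.92%), and 1 higher, Itga3 (0.24 ± 0.06; background 13.2%). The WT differences ran from -0.76 ± 0.13 for Lama3 to -0.18 ± 0.05 for Cd151. Lama3 had 162.8 ± 15.5 CPM in WT, 208.7 ± 5.92 CPM in FE255del, 244.5 ± 33.6 CPM in R219S and 276.5 ± 28.7 CPM in EV on day 0 (SD, n = 3 each). The FE255del difference in Lama3 (-0.41 ± 0.13, edgeR adjusted p = 0.025) did not pass without EV replicate 1 (0.121) or 2 (0.066) or FE255del replicate 1 (0.071), 2 (0.055) or 3 (0.069). Foxa1 itself was at 256.5 ± 3.19 CPM in WT, 233.2 ± 3.40 CPM in FE255del, 228.7 ± 6.25 CPM in R219S and 232.6 ± 5.0 CPM in EV on day 0, with no construct called against EV. Basal markers summed to 5600 to 6150 CPM in WT, 5410 to 5800 CPM in FE255del, 7420 to 7630 CPM in R219S and 7450 to 7650 CPM in EV on that day.

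In EV organoids no change was detected in the 9 genes over the first day. With edgeR, 0 of the 9 were called on day 1 against day 0 (background 0.259% higher and 1.17% lower), 0 had an unadjusted p under 0.05, and 0 were called by DESeq2; the log2 fold changes lay between -0.16 and 0.07. By day 11, 2 were higher (background 23.1%) and 1 was lower (24.6%) than on day 0. Col17a1 rose by 0.80 ± 0.07 (edgeR adjusted p = 1.4e-10) and Itga3 fell by 0.57 ± 0.06 on the log2 scale (adjusted p = 1.4e-09). The rise in Dst (0.16 ± 0.06, adjusted p = 0.032) did not pass without EV day 0 replicate 1 (0.077) or 2 (0.11) or EV day 11 replicate 1 (0.124) or 2 (0.06).

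Taking each line's own day 0 as its start, the change by day 1 was set beside the change in EV with an interaction contrast. It was more negative than in EV for 7 of the 9 genes in WT (background 23.8%), 8 in FE255del (22.9%) and 4 in R219S (23.3%). It was more positive for 1 gene in WT (20.2%) and 2 in R219S (16.1%), and for none in FE255del. The most negative values were those of Col17a1, at -1.98 ± 0.11 in WT and -2.17 ± 0.11 in FE255del. Itgb4 (-1.63 ± 0.08) came next in WT, and Lama3 (-1.74 ± 0.18) came next in FE255del, ahead of Itgb4 (-1.49 ± 0.08). In R219S, Itgb4 (-0.91 ± 0.08) and Lamb3 (-0.81 ± 0.08) changed most among the 4, and Dst changed the other way (0.81 ± 0.08). By day 11 the change was more negative than in EV for 4 genes in WT (10.5%) and 6 in FE255del (11.1%), and more positive for 8 genes in R219S (12.4%), with Lama3 at 1.01 ± 0.18 and Col17a1 at 0.67 ± 0.10. Only 1 gene was more positive in WT (background 10.9%), Itga3 at 0.35 ± 0.09, and 1 in FE255del (9.44%), Dst at 0.25 ± 0.08. Without WT day 0 replicate 1, the count for WT by day 11 fell to 3 of the 9, since Lama3 (edgeR adjusted p = 0.139) and Itgb4 (0.073) no longer passed. Lama3 in WT, Dst and Plec in FE255del and Dst in R219S by day 11, and Itga6 in WT and Itga3 and Lama3 in R219S by day 1, each lost their call without some single library, named in the closing section.

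**Figure D4:**
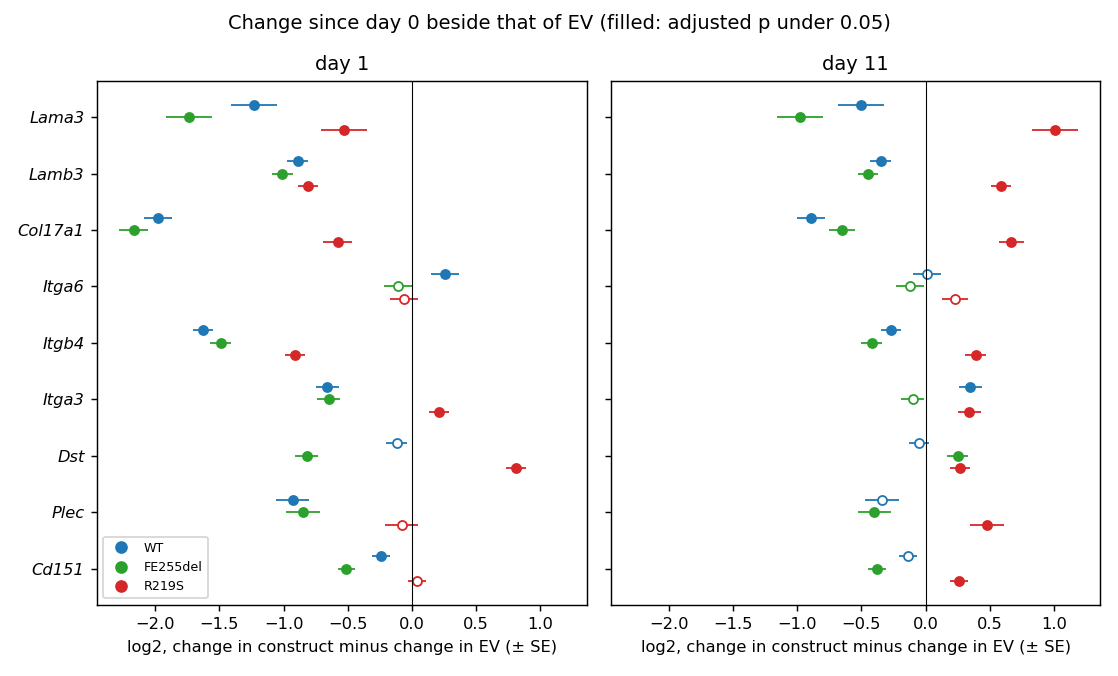
Change since day 0 in each FOXA1 line minus the change in EV (log2, horizontal axis, ± SE) for the 9 genes on days 1 and 11; filled points have an adjusted p under 0.05. On day 1 Itgb4, Lamb3, Lama3 and Col17a1 lie left of 0 in all 3 lines, and on day 11 the R219S points lie right of 0.

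The variants were also compared with WT directly. R219S was higher than WT for 7 of the 9 genes on day 1 (background 30.5%) and for all 9 on day 11 (24.8%), with medians of 0.89 and 0.81 beside -0.01 over all genes on either day. The largest differences on day 1 were in Itga3 (log2 1.52 ± 0.06, edgeR adjusted p = 5.0e-21), Col17a1 (1.4 ± 0.08, adjusted p = 8.5e-17) and Lama3 (1.29 ± 0.13, adjusted p = 2.7e-09). Lamb3 (0.13 ± 0.06, adjusted p = 0.057) and Itga6 (0.07 ± 0.07, adjusted p = 0.459) were not called. Lamb3 did pass without WT replicate 2 (0.16, adjusted p = 0.032) and with the 2 compared groups alone in the fit (0.09, adjusted p = 0.038), and Itga6 was at -0.0023 under total-count scaling. On day 11 the order was Lama3 (2.1 ± 0.13), Col17a1 (1.57 ± 0.08), Plec (1.04 ± 0.09), Lamb3 (0.99 ± 0.06), Itgb4 (0.81 ± 0.06), Itga3 (0.63 ± 0.06), Itga6 (0.61 ± 0.07), Cd151 (0.60 ± 0.05) and Dst (0.18 ± 0.06). Dst, at adjusted p = 0.011, did not pass without WT replicate 2 (0.109) or R219S replicate 2 (0.057), nor under total-count scaling (log2 0.09, adjusted p = 0.198) or with the 2 compared groups alone (0.057). On day 0, 5 of the 9 were already higher in R219S than in WT (background 23.8%), from 0.16 ± 0.06 for Itgb4 to 0.64 ± 0.06 for Itga3. That Itgb4 difference (adjusted p = 0.026) did not pass without WT replicate 2 (0.081) or 3 (0.126) or R219S replicate 1 (0.076) or 2 (0.095), nor with DESeq2 (0.061), the 2 other scalings (0.066 and 0.281), either other filter (0.084 and 0.131) or the compared groups alone (0.062).

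The change since day 0 in R219S still differed from that in WT. By day 1 it was more positive for 7 of the 9 genes (background 19.3%) and more negative for 1, Itga6 (-0.32 ± 0.11; background 20.6%), which did not pass without R219S day 0 replicate 2 (edgeR adjusted p = 0.07) or WT day 1 replicate 2 (0.062). By day 11 it was more positive for 7 of the 9 (18.5%), led by Col17a1 (1.56 ± 0.11) and Lama3 (1.51 ± 0.18). For Itga3 on day 11 the change in R219S and that in WT differed by -0.01 ± 0.09 (edgeR adjusted p = 0.979), while their levels on that day differed by 0.63 ± 0.06.

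FE255del differed from WT by at most 0.55 on the log2 scale, on any of the 3 days, for every gene but Dst. On day 1, 2 were higher than in WT (background 21.8%) and 4 were lower (19.9%). The sizable ones were Dst (log2 -0.98 ± 0.06, edgeR adjusted p = 6.3e-15), Itga3 (0.55 ± 0.06, adjusted p = 3.7e-09) and Col17a1 (-0.33 ± 0.08, adjusted p = 6.0e-04). The other calls were small, namely Itgb4 (0.20 ± 0.06), Itga6 (-0.20 ± 0.07) and Cd151 (-0.12 ± 0.05), and without WT replicate 2 or without FE255del replicate 3 only the 3 sizable ones were called. Without FE255del replicate 2, Itga6 (adjusted p = 0.061) and Cd151 (0.097) did not pass, nor did Itga6 without a filter on low counts (0.063) or Cd151 with the compared groups alone (0.06). On day 11, 0 of the 9 were called with edgeR (background 9.75% higher and 7.92% lower), 0 had an unadjusted p under 0.05 and 0 were called by DESeq2, with log2 fold changes between -0.12 and 0.10. Without WT replicate 1, Cd151 was called (-0.15, adjusted p = 0.044), as it was under total-count scaling (-0.12, adjusted p = 0.021), and without WT replicate 3, Col17a1 was (0.22, adjusted p = 0.022). On day 0, 3 were higher in FE255del than in WT (background 15.7%) and 1 was lower (11.2%). Itga3 (0.53 ± 0.06, adjusted p = 5.5e-08) and Dst (-0.29 ± 0.06, adjusted p = 4.5e-04) were the firm ones; Lama3 (0.36 ± 0.13, adjusted p = 0.04) and Cd151 (0.14 ± 0.05, adjusted p = 0.027) each failed under several other choices, and between 2 and 3 of the 9 were called when 1 library was left out.

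The change since day 0 in FE255del was more negative than in WT for 3 genes on day 1 (background 11.3%): Dst (-0.69 ± 0.09), Itga6 (-0.37 ± 0.11) and Cd151 (-0.27 ± 0.07). On day 11 it was more negative for Itga3 (-0.45 ± 0.09) and Cd151 (-0.24 ± 0.07; background 7.60%) and more positive for Dst (0.30 ± 0.08; background 6.70%). On day 11 Cd151 did not pass without WT replicate 3 (edgeR adjusted p = 0.067) or FE255del replicate 1 (0.052), nor Dst without WT replicate 2 (0.055) or FE255del replicate 3 (0.063). Dst levels over days 0, 1 and 11 were 37.8 ± 1.55, 20.6 ± 1.82 and 50.1 ± 3.57 CPM in FE255del and 46.2 ± 1.64, 40.8 ± 2.07 and 49.8 ± 3.96 CPM in WT (SD, n = 3 each).

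Set against each other, R219S was higher than FE255del for all 9 genes on day 1 (background 26.8%) and on day 11 (24.4%). On day 1 the difference ran from 0.18 ± 0.06 for Lamb3, which did not pass without FE255del replicate 1 (edgeR adjusted p = 0.059), to 1.78 ± 0.06 for Dst (adjusted p = 9.0e-23) and 1.73 ± 0.08 for Col17a1 (adjusted p = 4.6e-19). By day 11 Dst had the smallest difference (0.17 ± 0.06), lost without FE255del replicate 1 (adjusted p = 0.081) or 2 (0.064) or R219S replicate 2 (0.07), under total-count scaling (0.131) and with the compared groups alone (0.066), and Lama3 the largest (2.22 ± 0.13, adjusted p = 1.0e-13).

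**Figure D5:**
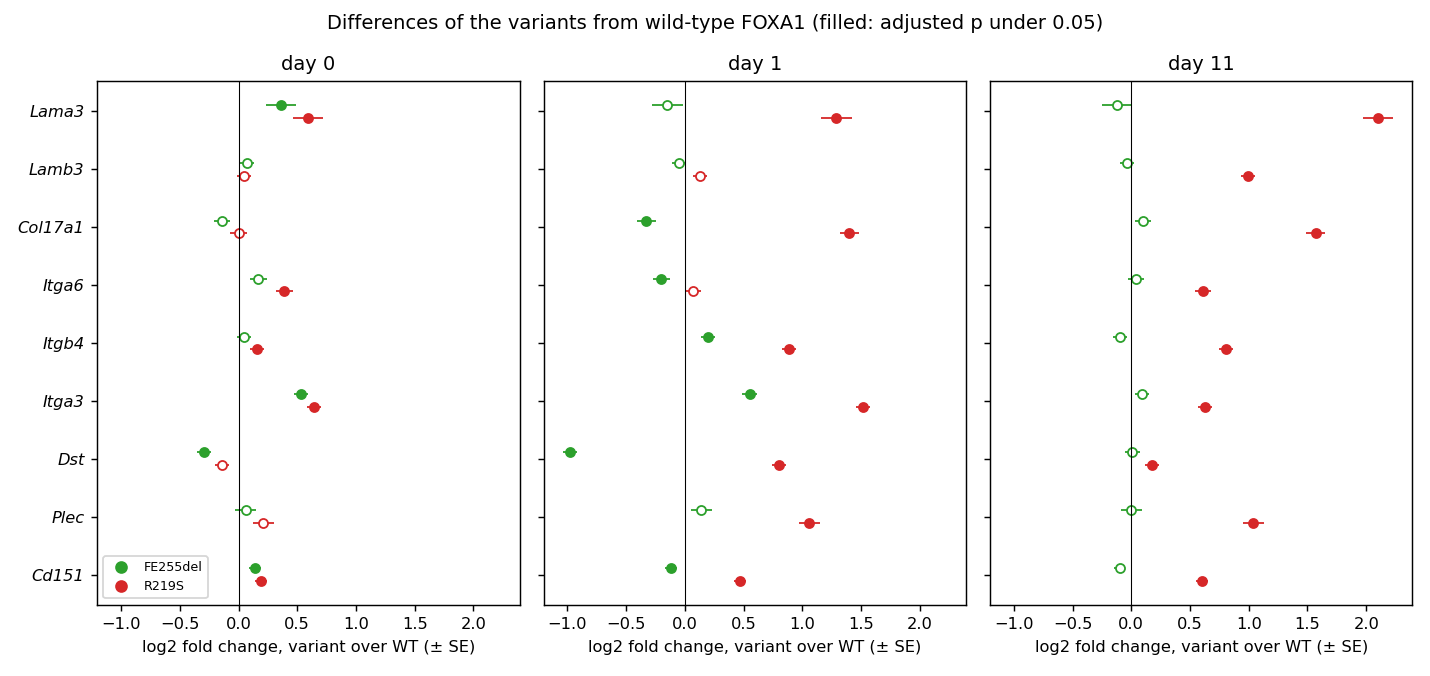
Log2 fold change of each variant over WT (horizontal axis, ± SE) for the 9 genes on days 0, 1 and 11; filled points have an adjusted p under 0.05. All 9 R219S points of day 11 are filled and right of 0, up to 2.1 for Lama3, and the FE255del points of day 11 are open and within -0.12 and 0.10.

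Over the 12 groups, R219S on day 11 had the highest mean of 7 of the genes, and R219S on day 1 the highest mean of Itga3 and Dst. The lowest mean was that of FE255del on day 1 for Lama3, Lamb3, Col17a1, Dst and Cd151, of WT on day 1 for Itgb4, Itga3 and Plec, and of WT on day 0 for Itga6. The lowest and next-lowest groups overlapped for Lama3, Lamb3, Itgb4, Plec, Cd151 and Itga6, and the highest and next-highest for Itga6. The share of all genes with their highest or lowest mean in these groups was not computed. The order of Lama3 began with R219S on day 11, whose libraries were all above those of the next group; then came the 3 EV groups and R219S on day 0, neighbours that overlapped each other. It ended with WT and FE255del on day 11, which overlapped, and then WT and FE255del on day 1, which overlapped as well. Highest over lowest mean came to 8.58-fold for Lama3, 4.88-fold for Itgb4, 3.43-fold for Dst, 3.24-fold for Lamb3, 3.22-fold for Plec, 2.86-fold for Itga3 and 1.81-fold for Cd151. Neighbouring groups overlapped in 4 of 11 steps for Col17a1, and in 6 to 8 of 11 for the others apart from Itga6.

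Per kilobase of exon, Col17a1 was the most abundant of the 9 in EV organoids on day 0, at 137 ± 4.40 CPM per kb, followed by Itgb4 at 98.4 ± 2.64 CPM per kb. Dst was the least abundant, at 1.14 ± 0.0367 CPM per kb over all its exons. In FE255del on day 1, Col17a1 had rank 6, at 20.9 ± 1.77 CPM per kb. Above it were Cd151 (55.1 ± 1.27 CPM per kb), Itga3 (53.4 ± 0.960), Itga6 (43.5 ± 0.335), Lamb3 (33.4 ± 1.02) and Itgb4 (28.6 ± 2.93; SD, n = 3 each). The lengths are unions of GENCODE M21 exons on GRCm38, and a spread of isoforms would change them.

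Other genes of the same adhesion system were described from lists of related genes. Their counts stand beside the shares of all genes called against EV. On day 1 these were 29.6% higher and 30.9% lower in WT, 25.5% higher and 27.7% lower in FE255del, and 23.2% higher and 25.3% lower in R219S. On day 11 they were 21.0% higher and 19.7% lower in WT, 22.6% higher and 19.6% lower in FE255del, and 17.7% higher and 14.4% lower in R219S. The all-gene medians on day 1 were -0.01, -0.03 and -0.04 in the same order.

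Of 6 tested laminin chains outside the 9 genes, 3 were lower and 1 was higher in WT on day 1 and likewise in FE255del, and 3 were lower and 2 higher in R219S; on day 11, 3 were lower and 1 was higher in WT, 3 were lower in FE255del, and 4 were higher in R219S (17.7% of all genes). Lama5, the α5 chain of other epithelial laminins, had 192.2 ± 8.81 CPM in WT, 242.9 ± 16.4 CPM in FE255del, 297.9 ± 11.1 CPM in R219S and 493.6 ± 48.7 CPM in EV on day 1. Lamb1 was higher than in EV in R219S on day 1 (log2 1.18 ± 0.07, edgeR adjusted p = 2.4e-15) and day 11 (0.71 ± 0.07, adjusted p = 1.3e-09). The list medians against EV on day 1 were -0.19 for WT, -0.26 for FE255del and -0.21 for R219S.

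Of 11 tested other basement membrane genes, on day 1 3 were higher and 5 lower in WT, 4 higher and 6 lower in FE255del, and 5 higher and 4 lower in R219S, with medians of -0.03, -0.26 and 0.49 in that order. The shares of all genes lower on that day were 30.9%, 27.7% and 25.3%. Agrn, which encodes the proteoglycan agrin, was lower in WT (log2 -1.56 ± 0.05), FE255del (-1.42 ± 0.05) and R219S (-0.81 ± 0.05) on day 1. Col7a1, the collagen of anchoring fibrils that attach under laminin-332, was lower in WT (-2.67 ± 0.22), FE255del (-3.69 ± 0.23, edgeR adjusted p = 3.3e-13) and R219S (-2.48 ± 0.22). Fras1, which encodes a basement membrane adhesion protein, was higher in WT (2.65 ± 0.13), FE255del (1.36 ± 0.13) and R219S (2.1 ± 0.13). On day 11 the counts were 4 higher and 5 lower in WT, 2 higher and 4 lower in FE255del, and 5 higher and 1 lower in R219S.

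Among 14 other integrin and tetraspanin genes, 8 were lower and 3 higher in WT on day 1, 7 lower and 4 higher in FE255del, and 6 lower and 7 higher in R219S, with medians of -0.33, -0.21 and 0.09. Over all genes 30.9%, 27.7% and 25.3% were lower and 29.6%, 25.5% and 23.2% higher in those lines. Itgb6, the β6 subunit of an epithelial fibronectin and TGF-β-activating integrin, was lower in all 3, by log2 -1.65 ± 0.07 in WT, -1.42 ± 0.07 in FE255del and -1.74 ± 0.07 in R219S. Itgb8 was lower in WT (-1.13 ± 0.08) and FE255del (-1.28 ± 0.08) and higher in R219S (1.21 ± 0.08). Itgb3 was near 0 in EV (0.0293 CPM on day 1) and had 1.37 ± 0.103 CPM in WT, 1.23 ± 0.284 CPM in FE255del and 6.74 ± 0.359 CPM in R219S. On day 11, 9 of the 14 were higher in R219S (17.7% of all genes) and 1 was lower (14.4%), while 7 were lower in WT and 8 in FE255del and 2 were higher in each. Itgb1, the partner of α3, was then 0.59 ± 0.05 above EV in R219S (edgeR adjusted p = 4.3e-11).

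Genes of the focal adhesion plaque, the actin-linked counterpart of the hemidesmosome, numbered 15. On day 1, 12 of 15 were lower (30.9% of all genes) and 2 higher (29.6%) in WT, 11 lower (27.7%) and 3 higher (25.5%) in FE255del, and 6 lower (25.3%) and 1 higher (23.2%) in R219S, with medians of -0.59, -0.37 and -0.05. Zyx, which encodes zyxin, was lower in WT (log2 -1.51 ± 0.04), FE255del (-1.38 ± 0.04) and R219S (-0.63 ± 0.04). Fermt1, the epithelial kindlin, was lower in WT (-0.97 ± 0.05) and R219S (-0.89 ± 0.05) and higher in FE255del (0.15 ± 0.05). Fermt2, its broadly expressed relative, was higher in WT (2.26 ± 0.10), FE255del (1.61 ± 0.10) and R219S (1.5 ± 0.10). On day 11, 4 were higher and 4 lower in WT, 4 higher and 5 lower in FE255del, and 10 higher (17.7% of all genes) and 1 lower (14.4%) in R219S. Of 9 tested proteases that act on these proteins or on basement membrane, 1 was higher and 5 were lower in WT on day 1, and 3 were higher and 4 lower in each variant, next to the day 1 shares of all genes just given. Plau, the urokinase gene, was lower on day 1 in WT (-2.98 ± 0.08, edgeR adjusted p = 4.3e-25), FE255del (-0.59 ± 0.07) and R219S (-1.51 ± 0.07). By day 11, 2 proteases were higher (21.0% of all genes) and 2 lower (19.7%) in WT. In FE255del 3 were higher (22.6%) and 2 lower (19.6%), and in R219S 5 were higher (17.7%) and 2 lower (14.4%). Plau was then higher in FE255del (0.99 ± 0.07, edgeR adjusted p = 2.6e-13), lower in R219S (-0.21 ± 0.07) and not called in WT (adjusted p = 0.986).

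Genes with a pattern close to these were found by Pearson's r of mean log2 CPM over the 12 group means, leaving out genes whose mean level was below 5 CPM. The points share libraries and EV controls, so the values are a description. Itgb4 was most like Lad1, which encodes ladinin, an anchoring filament protein (r = 0.986), and Lama5 (0.985). Col17a1 was most like Rerg (0.990), Lama3 like Urah (0.989), Plec like Eva1a (0.986), Cd151 like Csnk1a1 (0.986) and Lamb3 like Nfkbia (0.978). Itga3 (Naa25, 0.958) and Itga6 (Dynlt3, 0.931) had less close matches. Among the 9 themselves, r ran from 0.33 for Itga3 with Dst to 0.97 for Lama3 with Plec.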

How the data were processed

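PolyA RNA from 36 organoid cultures was sequenced from stranded TruSeq libraries, per the labels' protocols. Per the submitters' processing notes, reads were handled with STAR 2.4.2a and featureCounts 1.4.3 on mm10; the annotation release and the strand setting are not given in the sources used here. The deposited unit is estimated counts per gene, raw and not normalized. They are whole within 3.0e-09 and were rounded. Of the values from 1 to 20, 69.7% were even, so both reads of a pair appear to have been counted, which makes counting error larger than the counts imply; halving the counts was an alternative. Libraries held 61476938 to 102385337 counts over 45232 genes, and 44585 gene IDs matched a symbol.

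Genes were kept by filterByExpr (18176), scaled by TMM (factors 0.938 to 1.08) and fitted in 1 model of 12 group means with edgeR 4.0.16's quasi-likelihood test in R 4.3.3, two-sided, with Benjamini-Hochberg adjustment over all tested genes. The SE is the log2 fold change divided by the square root of F. The common biological coefficient of variation was 0.0695. Comparisons with EV on a day share EV libraries, and comparisons with WT share WT libraries. Alternatives were DESeq2 1.42.0, RLE and total-count scaling, other filters on low counts, halved counts, fits on the compared groups alone, a replicate block and leaving out each library.

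The 9 genes, the related lists and the markers were chosen with earlier results of these data known, and a related gene is named where it is among the 4 with the smallest p of its list in a comparison, with its values in the other constructs added after they were seen. Some further genes, markers among them, are not reported here. Exons of Plec share 1.13% of their length with Parp10 on the same strand; antisense genes overlap up to 7.66% of exons (Itgb4) and reached at most 2.15 CPM.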

Additional observations from a re-analysis of the deposited data

Results flagged for a closer look

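Each value here is a change since day 0 in a FOXA1 line minus the change in EV or WT (log2), and was flagged because edgeR's interaction test gave an adjusted p under 0.05. The change of WT by day 1 differed from that of EV for Lama3 (-1.23), Lamb3 (-0.89), Itga6 (0.26), Itgb4 (-1.63), Itga3 (-0.66), Col17a1 (-1.98), Plec (-0.93) and Cd151 (-0.24). The change of FE255del by day 1 differed from that of EV for Lama3 (-1.74), Lamb3 (-1.01), Itgb4 (-1.49), Itga3 (-0.65), Col17a1 (-2.17), Dst (-0.82), Plec (-0.85) and Cd151 (-0.51). For R219S by day 1, the flagged differences from EV were Lama3 (-0.53), Lamb3 (-0.81), Itgb4 (-0.91), Itga3 (0.21), Col17a1 (-0.58) and Dst (0.81).

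By day 11, WT differed from EV in Lama3 (-0.50), Lamb3 (-0.35), Itgb4 (-0.27), Itga3 (0.35) and Col17a1 (-0.89). FE255del differed from EV in Lama3 (-0.98), Lamb3 (-0.45), Itgb4 (-0.42), Col17a1 (-0.65), Dst (0.25), Plec (-0.40) and Cd151 (-0.38). R219S differed from EV in Lama3 (1.01), Lamb3 (0.59), Itgb4 (0.39), Itga3 (0.34), Col17a1 (0.67), Dst (0.27), Plec (0.48) and Cd151 (0.26), all toward a more positive change.

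Beside WT, the change of FE255del by day 1 differed in Itga6 (-0.37), Dst (-0.69) and Cd151 (-0.27), and by day 11 in Itga3 (-0.45), Dst (0.30) and Cd151 (-0.24). The change of R219S beside WT by day 1 differed in Lama3 (0.70), Itga6 (-0.32), Itgb4 (0.73), Itga3 (0.88), Col17a1 (1.4), Dst (0.94), Plec (0.85) and Cd151 (0.28). By day 11 it differed in Lama3 (1.51), Lamb3 (0.94), Itgb4 (0.66), Col17a1 (1.56), Dst (0.32), Plec (0.82) and Cd151 (0.41).

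Several of the smaller values rest on single libraries. Itga6 in WT by day 1 did not pass without EV day 0 replicate 1 or 2, any WT day 0 or EV day 1 replicate, or WT day 1 replicate 2 (adjusted p up to 0.128). In R219S beside EV by day 1, Itga3 did not pass without EV day 0 replicate 1 or 3, R219S day 0 replicate 1 or 3, EV day 1 replicate 1 or 2, or R219S day 1 replicate 1 or 3 (up to 0.124), and Lama3 did not pass without EV day 0 replicate 3, R219S day 0 replicate 2 or EV day 1 replicate 1 (up to 0.079). Lama3 in WT beside EV by day 11 did not pass without EV day 0 replicate 2 or 3, WT day 0 replicate 1 or 2, EV day 11 replicate 1 or 2, or WT day 11 replicate 1 or 2 (up to 0.143), and Itgb4 did not without WT day 0 replicate 1 (0.073). In FE255del beside EV by day 11, Plec did not pass without EV day 0 replicate 1, FE255del day 0 replicate 2, EV day 11 replicate 1 or FE255del day 11 replicate 1 (up to 0.115), and Dst did not without EV day 0 replicate 3, FE255del day 0 replicate 2 or 3, EV day 11 replicate 2 or 3, or FE255del day 11 replicate 3 (up to 0.123). Dst in R219S beside EV by day 11 did not pass without R219S day 0 replicate 3 (0.06). Beside WT, Itga6 in R219S by day 1 did not pass without R219S day 0 replicate 2 (0.07) or WT day 1 replicate 2 (0.062). In FE255del beside WT by day 11, Dst did not pass without WT day 11 replicate 2 (0.055) or FE255del day 11 replicate 3 (0.063), and Cd151 did not without WT day 11 replicate 3 (0.067) or FE255del day 11 replicate 1 (0.052). Without a filter on low counts, Itga6 in WT (adjusted p = 0.071) and Lama3 in R219S (0.066) beside EV by day 1, Lama3 in WT (0.088) and Plec in FE255del (0.075) beside EV by day 11, and Itga6 in R219S beside WT by day 1 (0.053) did not pass. Lama3 in WT beside EV by day 11 also did not pass under RLE scaling (0.057) or with the compared groups alone (0.091).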

How the results depend on the processing

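Of 196 results for single genes, 192 kept their direction and side of the threshold with DESeq2, 190 with RLE scaling, 195 with halved counts, 193 with a stricter filter, 185 without a filter, 187 with the compared groups alone and 185 with total-count scaling. The number of the 9 genes called moved by more than 1.5 times in these cases, whose cause was not tested. R219S against EV on day 0 had 4 called, against 2, with the compared groups alone. FE255del against WT on day 0 had 2, against 4, under RLE scaling, total-count scaling and no filter, and 2 to 3 with a library left out. FE255del against WT had 3 to 6 with a library left out on day 1, against 6, and on day 11 had 1 under total-count scaling and 0 to 1 with a library left out, against 0. The change of WT beside EV by day 11 had 3 to 6 with a library left out, against 5, with 3 without WT day 0 replicate 1. The change of FE255del beside WT by day 1 had 5, against 3, with the compared groups alone.
Signs turned in results that were not called: under total-count scaling, Itga6 in R219S against WT on day 1 (-0.0023) and Dst in FE255del against WT on day 11 (-0.015), and with a library left out on day 11. There, Itga3 ran from -0.12 to 0.0025 in WT and from -0.061 to 0.091 in FE255del against EV. In FE255del against WT, Lama3 ran from -0.24 to 0.04, Lamb3 from -0.12 to 0.041, Itga6 from -0.017 to 0.11, Itga3 from -0.0075 to 0.15, Dst from -0.050 to 0.070 and Plec from -0.056 to 0.087.
Replicate numbers did not pair the samples in the 19 comparisons checked. Correlations of same-numbered deviations there ran from -0.28 to 0.21, and in 0 comparisons was every one above 0.1. Those across days were within EV alone, so pairing over days within WT, FE255del or R219S was not tested. The replicate block was shared by all constructs and days, so it did not model pairing within a line. A fit with it changed 2 calls of 196. These were Itga6 (0.26, edgeR adjusted p = 0.051) and Lama3 (-0.50, adjusted p = 0.06) in the change of WT beside EV by days 1 and 11.
Total-count scaling moved the median of all genes by up to 0.12 (WT against EV on day 1). No called result for the 9 genes changed direction under that scaling. Directions of genes from the related lists were not checked under it. The share of higher genes among all calls moved by over 10 points: against EV it was 47.2% with 65.6% under TMM for R219S on day 0, 60.8% with 49.0% for WT and 61.0% with 48.0% for FE255del on day 1, and 42.6% with 55.2% for R219S on day 11. Against WT it was 44.9% with 58.3% for FE255del on day 0, and for R219S 43.4% with 59.7% on day 0 and 36.7% with 50.7% on day 11; for R219S against FE255del on day 11 it was 39.3% with 49.7%. For the change by day 1 beside EV it was 57.6% with 45.9% in WT, 59.5% with 43.1% in FE255del and 54.9% with 40.9% in R219S. Each of the 9 genes had at least 1333 reads in every library.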

Other observations

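The ratio of Col17a1 to Itgb4 CPM, 2 membrane proteins of the same junction, differed by line and day; it was computed after the levels were seen and was not tested. Over days 0, 1 and 11 it was 1.15 ± 0.022, 0.904 ± 0.072 and 1.29 ± 0.23 in WT, and 1.01 ± 0.043, 0.629 ± 0.052 and 1.48 ± 0.14 in FE255del (SD, n = 3 each). In R219S it was 1.03 ± 0.0081, 1.29 ± 0.026 and 2.16 ± 0.15, and in EV 1.19 ± 0.0099, 1.19 ± 0.044 and 2.05 ± 0.094. On day 11 every R219S and EV library had a ratio above every WT and FE255del library, and R219S and EV overlapped. The ratio of Itga3 to Itga6 on day 1 was 0.462 ± 0.014 in WT, 0.776 ± 0.016 in FE255del, 1.26 ± 0.051 in R219S and 0.855 ± 0.031 in EV, with no overlap between the 4 groups, and on day 11 it was 0.710 ± 0.014, 0.735 ± 0.052, 0.722 ± 0.041 and 0.550 ± 0.031 in the same groups.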
